A study of Mus musculus with 5 samples.

Results

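Glutathione transferases join the thiol of glutathione to electrophilic compounds, which makes these compounds soluble and ready for export from the cell. The transcripts of 10 genes of this family, given as a fixed set of symbols (Gsta1, Gsta3, Gsta4, Gstm1, Gstm2, Gsto1, Gstp1, Gstt1, Mgst1 and Mgst3), were followed in bladder urothelium of wild-type mice and of mice labelled as Nicastrin (Ncstn) knockouts. All 10 symbols were found among the 24970 genes counted. RNA was sequenced from dissected urothelial tissue of 5 mice aged 10 weeks, with 1 library per mouse. The 2 wild-type mice (WT 1 and WT 2) are labelled with genotype WT and strain C57Bl/6. The 3 knockout mice (KO 1, KO 2 and KO 3) carry Krt5CreERT2;Ncstnflox/flox, which is also the entry in their strain field, so a background strain is not given for them. Krt5CreERT2 is a Cre recombinase that becomes active on induction and is driven by the promoter of the basal cell keratin Krt5, and Ncstn encodes Nicastrin, a subunit of the gamma-secretase that cleaves Notch receptors. Whether the wild types carried the Cre or a floxed allele, and whether and when either group received an inducing drug, is not stated in the labels. Loss of Ncstn, strain background, Cre and induction therefore cannot be told apart in the comparison of knockout with wild type. Values per mouse are given in the order WT 1, WT 2 against KO 1, KO 2, KO 3.

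Cytosolic glutathione transferases fall into classes by sequence, among them alpha (Gsta), mu (Gstm), omega (Gsto), pi (Gstp) and theta (Gstt), and a separate group, the membrane-bound MAPEG proteins (Mgst), sits in the endoplasmic reticulum and mitochondrial outer membrane. Several family genes are known targets of Nrf2, a transcription factor of the oxidative stress response that binds antioxidant response elements, and of the aryl hydrocarbon receptor, which binds xenobiotic response elements. The urothelium faces reactive compounds concentrated in urine, and deletion of the human GSTM1 gene is a known risk factor for bladder cancer.

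The upstream sequences of 4 members are shown because Gstm1 and Gstm2 are close neighbours with different behaviour in these data and because Gsta3 and Mgst1 hold an antioxidant response element core. Each line gives the 250 bases before a RefSeq start site (GRCm38.p6), read on the gene's own strand, for Gstm1 (chr3:108017974-108018223, minus strand), Gstm2 (chr3:107986421-107986670, minus strand), Gsta3 (chr1:21240335-21240584, plus strand) and Mgst1 (chr6:138140277-138140526, plus strand).
Gstm1: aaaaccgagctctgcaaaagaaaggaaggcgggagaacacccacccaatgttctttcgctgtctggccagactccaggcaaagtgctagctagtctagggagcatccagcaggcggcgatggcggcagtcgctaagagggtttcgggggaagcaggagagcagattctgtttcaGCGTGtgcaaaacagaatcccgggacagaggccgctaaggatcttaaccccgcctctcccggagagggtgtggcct
Gstm2: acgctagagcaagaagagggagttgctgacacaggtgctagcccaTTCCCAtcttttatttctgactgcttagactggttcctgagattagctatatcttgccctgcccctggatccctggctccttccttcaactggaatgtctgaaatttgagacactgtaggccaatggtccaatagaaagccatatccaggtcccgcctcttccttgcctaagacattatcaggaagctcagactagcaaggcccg
Gsta3: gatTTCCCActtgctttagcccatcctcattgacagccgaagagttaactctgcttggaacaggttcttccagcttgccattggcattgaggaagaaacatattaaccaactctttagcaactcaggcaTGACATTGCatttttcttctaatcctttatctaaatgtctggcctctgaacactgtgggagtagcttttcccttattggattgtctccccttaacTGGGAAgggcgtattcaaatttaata
Mgst1: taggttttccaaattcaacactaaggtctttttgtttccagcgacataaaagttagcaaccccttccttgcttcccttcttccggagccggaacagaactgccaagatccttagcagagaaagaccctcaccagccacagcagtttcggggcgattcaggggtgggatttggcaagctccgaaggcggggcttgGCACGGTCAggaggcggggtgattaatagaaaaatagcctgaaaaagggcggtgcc
Capitals mark matches, on either strand, to the antioxidant response element core TGACNNNGC, the xenobiotic response element core GCGTG, the TATA box TATAAA and TGGGAA, the core bound by the Notch partner RBPJ. RefSeq windows were matched by symbol for 9 of the 10 members, all but Gsta4. A member was counted where any of its windows held the core, and Gstm1 and Mgst1 had more than 1 window. The shares beside these counts are of single windows. The antioxidant response element core stood in windows of 2 of these 9 members, against 10.2% of 32851 windows of the same length. It started 121 bases before the start site in Gsta3 and 56 bases before it in Mgst1. The xenobiotic response element core stood in 3 of 9 (Gstm1, Gstp1 and Mgst3; 28.2% of all windows), the RBPJ core in 2 of 9 (Gsta3 and Gstm2; 21.6%) and the TATA box in 1 of 9 (12.4%), in the window of a second listed start of Gstm1 that is not printed here.

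Libraries held 12608836 to 27188499 counts assigned to genes. The precursor ribosomal RNA Rn45s took 3.23% to 7.84% of gene counts in wild-type tissue against 0.608% to 1.53% in the knockouts. Ncstn, on chromosome 1 from 172066013 to 172082795 (GRCm38), was at 144 and 130 CPM (gene counts scaled to a common library total with TMM factors) in wild-type tissue against 114, 117 and 123 CPM in knockout tissue, and it was not called (log2 fold change -0.21 ± 0.093 SE; edgeR adjusted p = 0.133). These counts span the entire gene and all dissected cells, and do not check the deletion. All 13 urothelial marker genes checked, uroplakins and keratins among them, passed the filter on low counts, and their summed level was 14267 to 16243 CPM in wild-type tissue against 19891 to 22249 CPM in the knockouts. Markers of fibroblasts were also abundant, with 10 of 10 tested, 9 lower in the knockouts and a sum of 14727 to 16708 CPM against 8586 to 10305 CPM. The adipocyte markers Adipoq, Plin1, Cidec, Lep and Retn and the B cell marker Cd79a were below the filter. In such whole-tissue RNA, fewer cells of a type and less RNA per cell cannot be told apart.

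Of the 10 members, Gstm1 rose in the knockouts and the other 9 did not pass the test (threshold 0.05 for the p of edgeR's quasi-likelihood test, adjusted over all 14779 tested genes by the method of Benjamini and Hochberg). Over all tested genes, 19.7% passed, with 9.64% higher and 10.0% lower, so the 10% of members called lay under the background. The median log2 fold change of the members was -0.08, against 0.01 over all tested genes. None fell, and at an unadjusted p under 0.05 the members were Gstm1 and Gstp1, both with positive values, beside 34.8% of all tested genes. DESeq2 and limma-voom likewise called Gstm1 and no other member, beside 19.6% and 21.1% of all tested genes. For 4 members the knockout values were all outside the wild-type range on 1 side, 2 above and 2 below. The same held for 51.0% of all tested genes, 25.9% above and 25.1% below. The plot of CPM by library shows how far the members differ in level and how little most of them differ between genotypes.

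**Figure D1:**
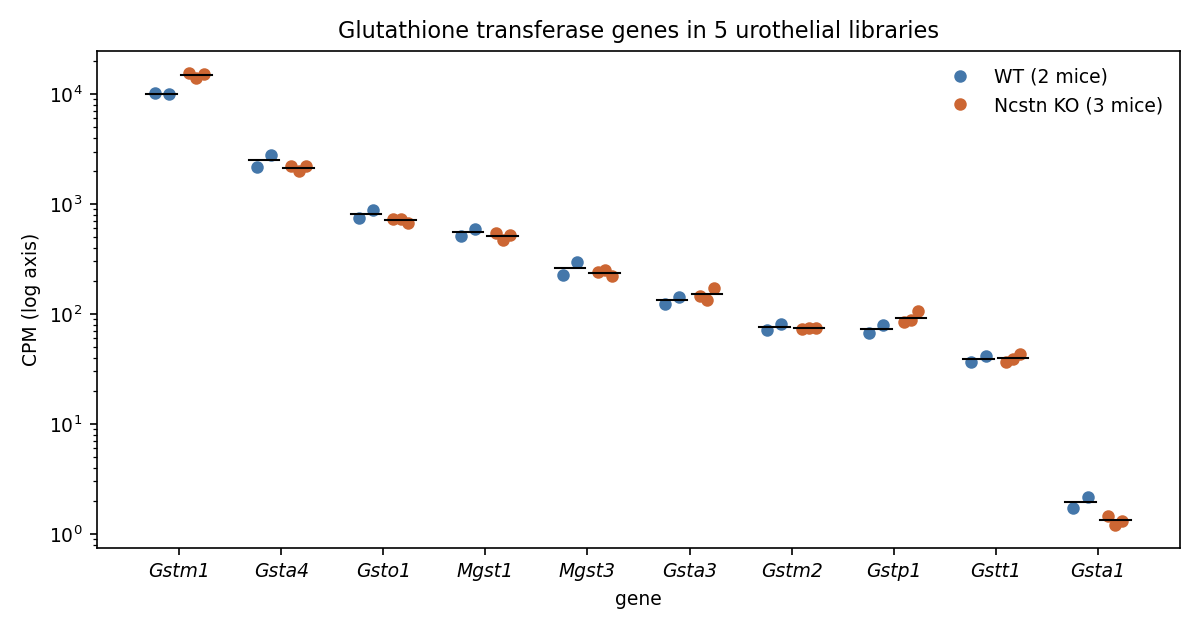
CPM (log axis) of the 10 glutathione transferase genes, with 1 point per library, WT in blue (n = 2) and Ncstn KO in orange (n = 3), and black lines at group means. Gstm1 lies at 10020 to 15407 CPM and Gsta1 at 1.2 to 2.16 CPM, and the groups are set apart most visibly for Gstm1.

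The mu class member Gstm1, on chromosome 3 from 108012255 to 108017973 (minus strand), was one of the most abundant transcripts of the tissue, first or second among all genes in every library and 1.0% to 1.56% of all gene counts. It was measured at 10152 and 10020 CPM in wild-type tissue against 15407, 13963 and 15290 CPM in knockout tissue. All 3 knockouts lay above both wild types, with a wide gap between the groups. Its mean was 10086 ± 93.2 CPM (SD, n = 2) in wild-type tissue and 14886 ± 802 CPM (SD, n = 3) in knockout tissue, a 1.48-fold difference with a 95% interval of 1.16 to 1.88 (log2 fold change 0.56 ± 0.16 SE; edgeR adjusted p = 0.0327). Of the 1424 genes called higher, 45.9% had a larger fold change than Gstm1. The call needed nearly all mice, since edgeR's adjusted p reached 0.0865 and 0.0758 when WT 1 or WT 2 was left out, and 0.105 and 0.108 when KO 1 or KO 2 was, with log2 fold changes of 0.57, 0.54, 0.54 and 0.59. It was 0.0461 without KO 3. Over all genes these 5 fits called 4.79%, 9.40%, 12.0%, 13.0% and 27.0%. With the replicate number as a block, the edgeR adjusted p of Gstm1 was 0.0741, while 31.4% of all genes were called. KO 3 alone has replicate number 3, so the block leaves it out of the contrast of genotypes. That contrast thus rests on the same mice as the fit without KO 3.

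Some urothelial markers rose in the knockouts as Gstm1 did, while others overlapped between the groups. Of the 13 markers 5 were called higher, beside 9.64% of all tested genes, and 8 did not pass. All knockouts lay above both wild types for 8 markers, beside 25.9% of all tested genes, and the groups overlapped for 5. The level of Gstm1 was set against that of the markers within each library. These ratios were chosen after the values were seen, and all 13 markers were used. Against the summed urothelial markers, Gstm1 stood at 0.712 and 0.617 in wild-type tissue against 0.692, 0.65 and 0.769 in knockout tissue. The groups overlapped on this scale, and the ratio of the group means was 1.06. Against single markers, all knockout ratios lay above both wild types for 6 of 13, below both for 1 and overlapped for 6, and the ratios of the group means ran from 0.808 to 1.42. Those with the knockouts above were Trp63 (1.42), Cdh1 (1.35), Epcam (1.28), Krt7 (1.27), Krt20 (1.25) and Upk3b (1.09, with WT 1 and KO 2 both at 29.5 after rounding). Against Upk2, a uroplakin of umbrella cells, the ratio was 11.9 and 10.8 in wild-type tissue against 8.93, 8.72 and 9.85 in the knockouts, so Gstm1 was lower relative to Upk2 in every knockout. Against Upk1a, Upk1b, Upk3a, Krt5, Krt18 and Krt19 the groups overlapped, with ratios of the group means of 0.937, 0.991, 0.953, 1.2, 1.11 and 1.16. The direction of the Gstm1 ratio thus depended on the marker it was set against. Fibroblast markers moved the other way, with 9 of 10 lower in the knockouts. The part of the urothelial and fibroblast markers in the level of Gstm1 was not tested.

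Gstm2, the neighbouring mu class gene, was at 71.6 and 80.6 CPM in wild-type tissue against 73.7, 74.5 and 75.1 CPM in the knockouts. The knockouts lay between the wild types, and the fold change was 0.979 with a 95% interval of 0.848 to 1.13 (edgeR adjusted p = 0.846). Gstm2 shares 5.65% of its 50-base stretches with transcripts of other genes, and Gstm1 shares 18.9%, mostly with the pseudogene Gstm2-ps1 (14.1%). Reads that fit several places would be lost from such stretches, and no source used here gives the read length.

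The alpha class includes the second most abundant member. Gsta4, on chromosome 9 from 78182774 to 78209349, encodes an enzyme that conjugates hydroxynonenal, a product of lipid peroxidation. It was measured at 2180 and 2804 CPM in wild-type tissue against 2209, 1982 and 2207 CPM in knockout tissue. WT 2 was the high library and WT 1 lay among the knockouts, and Gsta4 did not pass (fold change 0.856, 95% interval 0.687 to 1.07; edgeR adjusted p = 0.294). Gsta3, on chromosome 1, encodes the enzyme known for clearing aflatoxin epoxide in mice. Its values were 124 and 144 CPM in wild-type tissue against 146, 133 and 173 CPM in the knockouts, which overlapped (fold change 1.12, interval 0.926 to 1.36; edgeR adjusted p = 0.376).

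Gsta1, another alpha class gene, had the fewest reads of the members, with 33 and 31 counts in wild-type tissue against 39, 20 and 17 counts in knockout tissue. On the CPM scale these were 1.72 and 2.16 against 1.47, 1.2 and 1.32. All 3 knockouts lay below both wild types, but Gsta1 did not pass, and its interval for the fold change was the widest of the members (0.424 to 1.14; edgeR adjusted p = 0.278). Gsta1 shares 90.5% of its 50-base stretches with other genes, 75.7% with its near-identical neighbour Gm3776, so the assignment of counts between these genes is uncertain.

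Gstp1, the pi class gene on chromosome 19 from 4035407 to 4037985, encodes an enzyme that also binds the stress kinase JNK. It was measured at 67.5 and 79.6 CPM in wild-type tissue against 84, 87.3 and 107 CPM in knockout tissue. All 3 knockouts lay above both wild types, with KO 1 close to WT 2. The fold change of 1.26 (95% interval 1.04 to 1.54) had an unadjusted p of 0.0246 but was not called after adjustment (edgeR adjusted p = 0.0897). It passed without a filter on low counts (edgeR adjusted p = 0.0246), where more genes entered the fit and 19.3% of them were called. Gstp1 shares 33.7% of its 50-base stretches with its neighbour Gstp2.

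Gsto1, also on chromosome 19, encodes the omega class enzyme, which reduces dehydroascorbate and acts as a thiol transferase. It was at 741 and 884 CPM in wild-type tissue against 735, 729 and 668 CPM in the knockouts. All knockouts lay below both wild types, but KO 1 and WT 1 were nearly level and Gsto1 did not pass (fold change 0.875, interval 0.73 to 1.05; edgeR adjusted p = 0.269). The theta class gene Gstt1, whose product acts on small halogenated compounds, was at 36.8 and 41.8 CPM and at 36.9, 39.3 and 43.5 CPM. Its groups spanned the same range (fold change 1.01, interval 0.851 to 1.21; edgeR adjusted p = 0.923).

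The MAPEG genes also overlapped between genotypes. Mgst1 encodes a microsomal and mitochondrial transferase that also reduces lipid hydroperoxides. It was at 513 and 596 CPM in wild-type tissue against 543, 468 and 517 CPM in knockout tissue (fold change 0.919, interval 0.77 to 1.1; edgeR adjusted p = 0.48). Mgst3 lies 4.67 Mb from Ncstn on chromosome 1, from 167371966 to 167393841. It was at 225 and 297 CPM and at 241, 249 and 223 CPM (fold change 0.912, interval 0.752 to 1.11; edgeR adjusted p = 0.483). For the 8 members other than Gstm1 and Gsta1, the 95% intervals reached no lower than 0.687-fold and no higher than 1.54-fold, so larger changes lay outside the intervals of these genes. The plot of log2 fold changes shows these intervals beside those of the rest of the family.

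**Figure D2:**
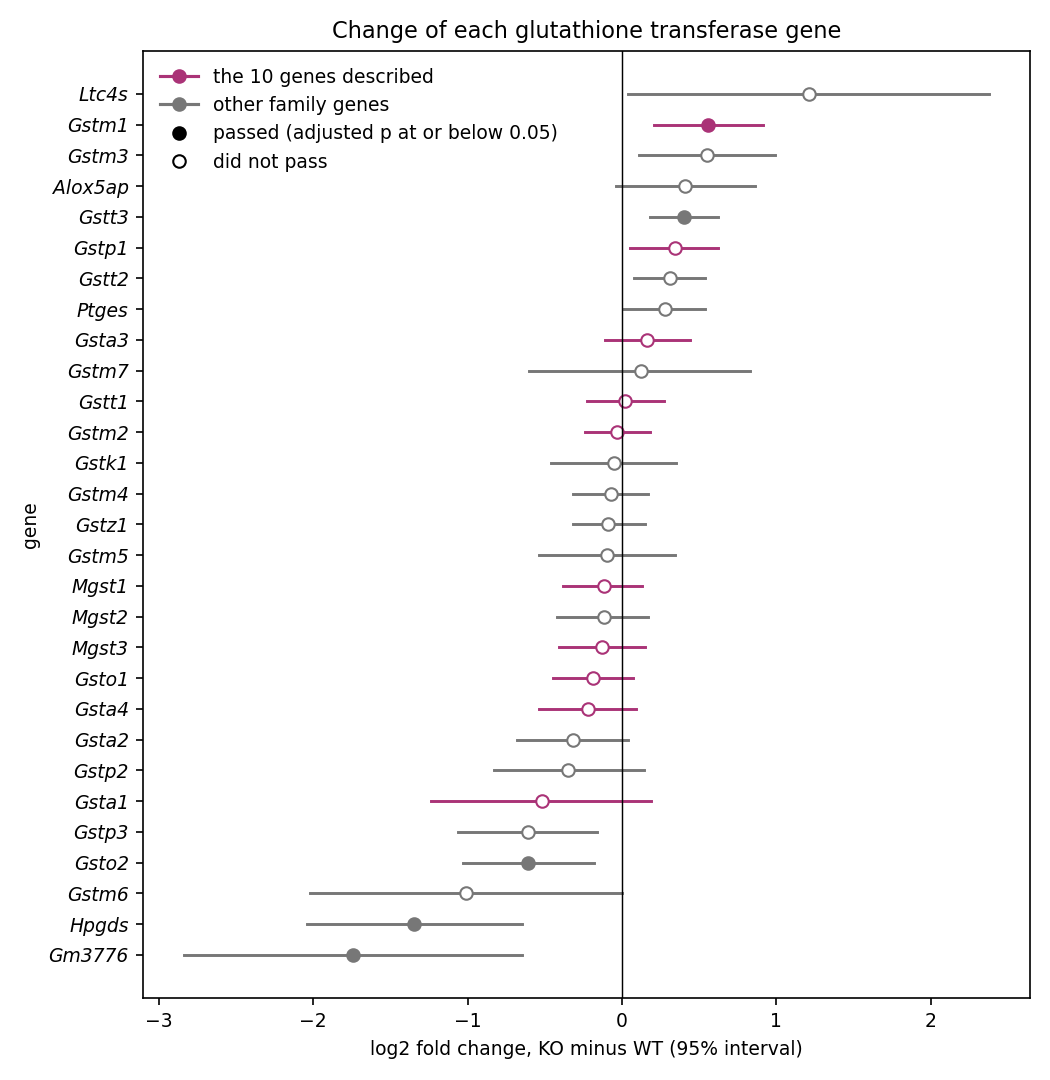
Log2 fold change (KO minus WT) with its 95% interval for 29 tested family genes, the 10 members in purple and other family genes in grey, filled where the edgeR adjusted p was at or below 0.05. Among the members only Gstm1 is filled, at 0.56, and the 4 filled grey points are Gstt3 on the right and Gsto2, Hpgds and Gm3776 on the left.

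Levels of different genes were compared per length (CPM per kilobase of exon, GENCODE vM21). In the wild types Gstm1 stood at 6847 ± 63.3 (SD, n = 2), Gsta4 at 1968 ± 348, Gsto1 at 402 ± 49.8, Mgst1 at 275 ± 28.9 and Mgst3 at 238 ± 46.9. Then came Gstp1 at 47.5 ± 5.54, Gstm2 at 45.3 ± 3.81, Gsta3 at 30.9 ± 3.23, Gstt1 at 25.7 ± 2.31 and Gsta1 at 2.03 ± 0.323. This order was the same in the means of the 3 knockouts. It depends on the exon lengths, which merge all annotated transcripts of a gene (4344 bases for Gsta3). Which transcripts were present was not determined. Before division by length, Gsta3 (124 to 173 CPM) lay above Gstp1 (67.5 to 107 CPM) and Gstm2 (71.6 to 80.6 CPM) in every library. Neighbours in the order were separated in all 5 libraries, except that the ranges of Mgst1 and Mgst3 overlapped, as did those of Gstp1 and Gstm2. Within each library Mgst1 was still above Mgst3 and Gstp1 above Gstm2 in 5 of 5 cases on the scale per length. Before division by length, Gstp1 lay below Gstm2 in WT 1 (67.5 against 71.6 CPM) and WT 2 (79.6 against 80.6 CPM).

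Gstm1 made up most of the family's transcripts per length. Over 28 family genes it held 69.8% and 64.6% of the wild-type sum against 77.2%, 76.8% and 77.3% of the knockout sum. The knockouts lay above both wild types and close to each other. Gsta4 held 17.4% and 21% in wild-type tissue against 12.9%, 12.7% and 13% in the knockouts. Summed over the 10 members, counts came to 14113 and 14949 CPM in wild-type tissue against 19477, 17726 and 19305 CPM in the knockouts. Without Gstm1 the sums were 3961 and 4929 CPM against 4070, 3764 and 4015 CPM, which overlapped. The higher sum in the knockouts was thus not seen once Gstm1 was set aside. The bars of family shares show this make-up by library.

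**Figure D3:**
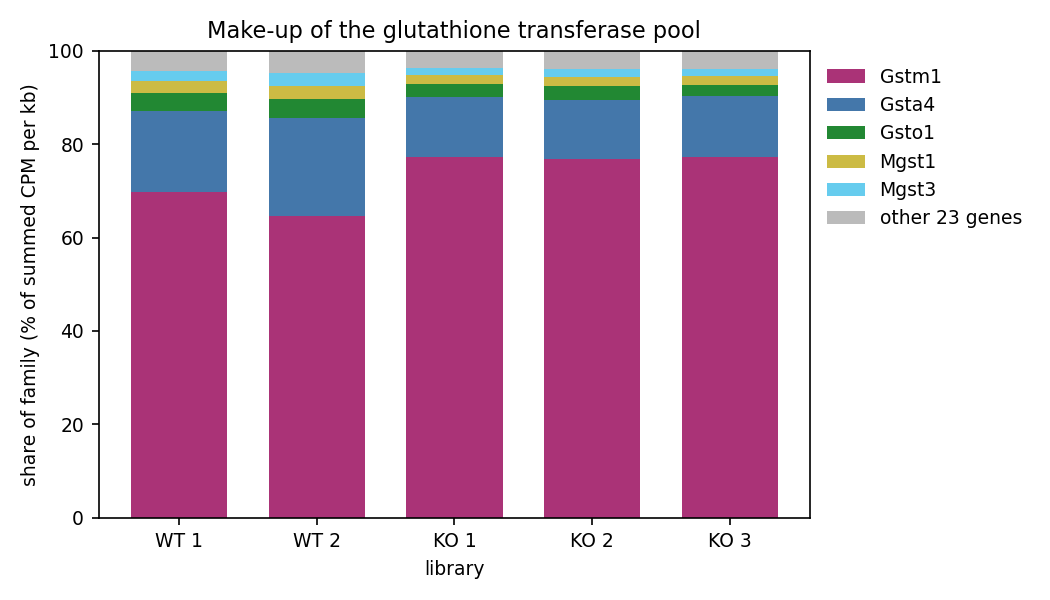
Share of each gene in the summed CPM per kilobase of 28 glutathione transferase genes (in %, stacked to 100%), with 1 bar per library. Gstm1 takes 64.6% to 69.8% in wild-type tissue against 76.8% to 77.3% in the knockouts, and Gsta4 takes the second largest share in every library.

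The remaining cytosolic, mitochondrial and related transferases were read from the same fit. Of 18 listed genes 17 were counted and 15 passed the filter, of which 1 rose, 3 fell and 11 did not pass (median log2 fold change -0.1). That is 26.7% called, beside 19.7% of all tested genes (9.64% higher and 10.0% lower). Gstt3, a theta class gene beside Gstt1 on chromosome 10, was at 226 and 250 CPM in wild-type tissue against 301, 310 and 330 CPM in the knockouts. It rose 1.32-fold without overlap (edgeR adjusted p = 0.0208). Of its exons 13.6% overlap Gm20441 on the same strand, a gene not among those counted. Gstt2 was at 57.6 and 65.7 CPM against 72.6, 73.7 and 83 CPM, which missed the threshold (edgeR adjusted p = 0.064). Of the tested theta genes, Gstt3 and Gstt2 thus had higher values in all knockouts, as did 25.9% of all tested genes, while Gstt1 overlapped. Gstt4 had no count in the wild types and 5, 1 and 5 counts in the knockouts and was not tested, nor was Gm10639.

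Hpgds, the sigma class gene, encodes the haematopoietic prostaglandin D synthase of mast cells and other leukocytes. It was at 5.54 and 4.67 CPM in wild-type tissue against 1.43, 1.86 and 2.96 CPM in knockout tissue, and fell 2.54-fold (edgeR adjusted p = 0.0152). All knockouts lay below both wild types. In the same libraries the summed leukocyte markers were at 204 to 221 CPM in wild-type tissue against 99.7 to 184 CPM in the knockouts, with 1 of 7 tested markers (Lyz2) lower and none higher, and their part in the level of Hpgds was not tested. Gsto2 was at 8.1 and 9.06 CPM against 5.27, 5.11 and 6.62 CPM and fell 1.52-fold (edgeR adjusted p = 0.0495). Gm3776 had 21 and 16 counts in wild-type tissue against 8, 3 and 7 counts in the knockouts and fell by 1.74 on the log2 scale (edgeR adjusted p = 0.0334), with 92.5% of its 50-base stretches shared with other genes. Summed over Gsta1 and Gm3776, the level was 2.82 and 3.28 CPM in wild-type tissue against 1.77, 1.38 and 1.87 CPM in the knockouts.

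These calls also did not all hold with a library left out, though each gene kept its direction. Over other scalings, filters and tests and with libraries left out, log2 fold changes ran from 0.32 to 0.46 for Gstt3 and -1.68 to -1.1 for Hpgds. They ran from -0.73 to -0.54 for Gsto2 and -2.12 to -1.5 for Gm3776. Fewer of all tested genes were called as well when WT 1, WT 2, KO 1 or KO 2 was left out. Without WT 1 the edgeR adjusted p was 0.163 for Gstt3, 0.165 for Hpgds, 0.165 for Gsto2 and 0.221 for Gm3776, and without WT 2 it was 0.0508, 0.0663, 0.199 and 0.146. Without KO 1, Gsto2 (edgeR adjusted p = 0.143) and Gm3776 (0.0888) did not pass, and without KO 2 neither did Gstt3 (0.0672), Gsto2 (0.117) and Gm3776 (0.0702). DESeq2 did not call Gsto2 (adjusted p = 0.0684) or Gm3776 (0.0997). Gstp3 had a log2 fold change of -0.61, short of the threshold (edgeR adjusted p = 0.0582). It passed in edgeR with no filter (adjusted p = 0.0253), a filter at 5 CPM (0.0477), upper-quartile scaling (0.0466) or without KO 2 (0.0314). Limma-voom called it too (adjusted p = 0.0399). It also passed without KO 3 (edgeR adjusted p = 0.0414) and with the replicate block (0.0144), whose contrasts rest on the same mice.

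The other genes of the list that did not pass were Gstm3 (log2 fold change 0.55), Gstm6 (-1.01), Gsta2 (-0.32), Gstp2 (-0.35), Gstm7 (0.12), Gstm4 (-0.07), Gstm5 (-0.1), Gstz1 (-0.09) and Gstk1 (-0.05). Gstm4, the other abundant mu gene, was at 219 and 271 CPM in wild-type tissue against 239, 225 and 234 CPM in the knockouts. Among the 7 mu genes, Gstm1 was therefore the one called. Gstm3 had nearly the same log2 fold change (95% interval 0.11 to 0.99) and an edgeR adjusted p of 0.0763. It was at 7.99 and 6.34 CPM in wild-type tissue against 10.4, 8.84 and 12.5 CPM in the knockouts. Without a filter on low counts Gstm3 passed (edgeR adjusted p = 0.0285), as did Gstm6, which was lower (0.0355). None of 4 further MAPEG genes passed in edgeR, DESeq2 or limma-voom. In edgeR 2 were at an unadjusted p under 0.05, beside 34.8% of all tested genes. Ltc4s (log2 fold change 1.21), Alox5ap (0.41) and Ptges (0.28) act in leukotriene and prostaglandin synthesis. These 3 had all knockouts above both wild types, as did 25.9% of all tested genes. Ptges (edgeR adjusted p = 0.128) and Ltc4s (0.131) had 95% intervals just above zero, and Mgst2 was at -0.12. Ptges and Ltc4s passed without KO 3 (edgeR adjusted p = 0.0214 and 0.0322). The replicate block, which also leaves KO 3 out of the contrast, called them too (edgeR adjusted p = 0.0101 and 0.00215). Ltc4s passed without a filter on low counts as well (edgeR adjusted p = 0.0211). Ltc4s was at 4.33 CPM in KO 2 against 1.69 and 1.4 CPM in KO 1 and KO 3, and its log2 fold change was 0.55 without KO 2 (edgeR adjusted p = 0.393).

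Lists were taken of genes that make, recycle, use or export glutathione or supply NADPH. Further lists held enzymes of aldehyde clearance, other conjugating enzymes and regulators of the response to foreign compounds. Together they were 8 lists of 91 genes, of which 84 were tested. Of these 18 rose, 8 fell and 58 did not pass, which is 31% called beside 19.7% of all tested genes. Without KO 1, KO 2 or KO 3, the 26 calls became 17 of 83, 19 of 84 and 32 of 83 tested. Those fits called 12.0%, 13.0% and 27.0% of all tested genes. Calls were also fewer when WT 1 or WT 2 was left out, in the lists and over all genes. In glutathione synthesis and cystine supply 1 of 7 rose and 6 did not pass (median log2 fold change 0.28). The gene that rose was Slc3a2, the heavy chain of the cystine transporter (1.39-fold, edgeR adjusted p = 0.00869), with an edgeR adjusted p of 0.0788 without WT 1 and 0.0519 without WT 2. Slc7a11, another gene of cystine supply on this list, overlapped between the groups and was not called (edgeR adjusted p = 0.866). It was at 13.1 and 11.7 CPM in wild-type tissue against 11, 10.8 and 17.6 CPM in the knockouts. Gclc and Gclm, the subunits of the rate-limiting ligase of glutathione synthesis, missed the threshold at 1.28-fold and 1.25-fold (edgeR adjusted p = 0.101 and 0.0592). Among peroxidases, the reductase and glutaredoxins 3 rose, 1 fell and 8 did not pass (median 0.19), and the glutathione reductase gene Gsr was at 102 ± 5.4 and 113 ± 7.04 CPM (SD, n = 2 and 3) and was not called. In glutathione breakdown and the processing of conjugates 3 rose, 1 fell and 10 did not pass (median -0.04). Cndp2, a dipeptidase that cleaves cysteinylglycine, rose 1.63-fold (edgeR adjusted p = 0.0012), and Oplah, which opens oxoproline, rose 1.66-fold (0.00159). Both calls held with each library left out. Of the conjugate export pumps 2 of 7 rose and 5 did not pass (median 0.09), and of the 6 enzymes of NADPH supply 2 rose and 4 did not pass (median 0.27).

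Enzymes that clear aldehydes and other carbonyls moved both ways, as 2 rose, 2 fell and 10 were not called (median 0.11). Ptgr1, which reduces reactive enals, rose 2.31-fold, from a mean of 268 ± 24.9 CPM to one of 619 ± 54.6 CPM (SD, n = 2 and 3), with an edgeR adjusted p of 0.000217. The aldo-keto reductase gene Akr1b10 fell 1.94-fold (edgeR adjusted p = 0.000329). Among other conjugating enzymes 3 rose, 3 fell and 7 were not called (median -0.07). The phenol sulfotransferase gene Sult1a1 rose 2.24-fold (edgeR adjusted p = 0.00249) and the glucuronosyltransferase gene Ugt1a6b fell 1.82-fold (0.00181), with counts uncertain because Ugt1a genes share their last exons. The sterol sulfotransferase gene Sult2b1 fell from 1.53 ± 0.0995 CPM to 0.0911 ± 0.0253 CPM (edgeR adjusted p = 0.000863). Sult2b1 passed the filter on low counts through the wild types alone. These calls of Ptgr1, Akr1b10, Sult1a1, Ugt1a6b and Sult2b1 held with each library left out. Among regulators of the response to foreign compounds 2 rose, 1 fell and 8 did not pass (median 0.04). Nfe2l2, which encodes Nrf2, was at 479 ± 11.1 and 536 ± 65.1 CPM and its inhibitor Keap1 at 68.2 ± 3.73 and 83.6 ± 6.24 CPM, both short of the threshold (edgeR adjusted p = 0.367 and 0.0652). Nqo1, a classical Nrf2 target, was at 277 and 286 CPM in wild-type tissue against 211, 221 and 371 CPM in the knockouts and was not called (edgeR adjusted p = 0.839). KO 3 lay above and the other knockouts below both wild types. Nqo1 was called lower without KO 3 (log2 fold change -0.4, edgeR adjusted p = 0.0149). The replicate block, which also leaves KO 3 out of the contrast, gave -0.38 (edgeR adjusted p = 0.0156). The plot of the lists sets these values beside the 10 members.

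**Figure D4:**
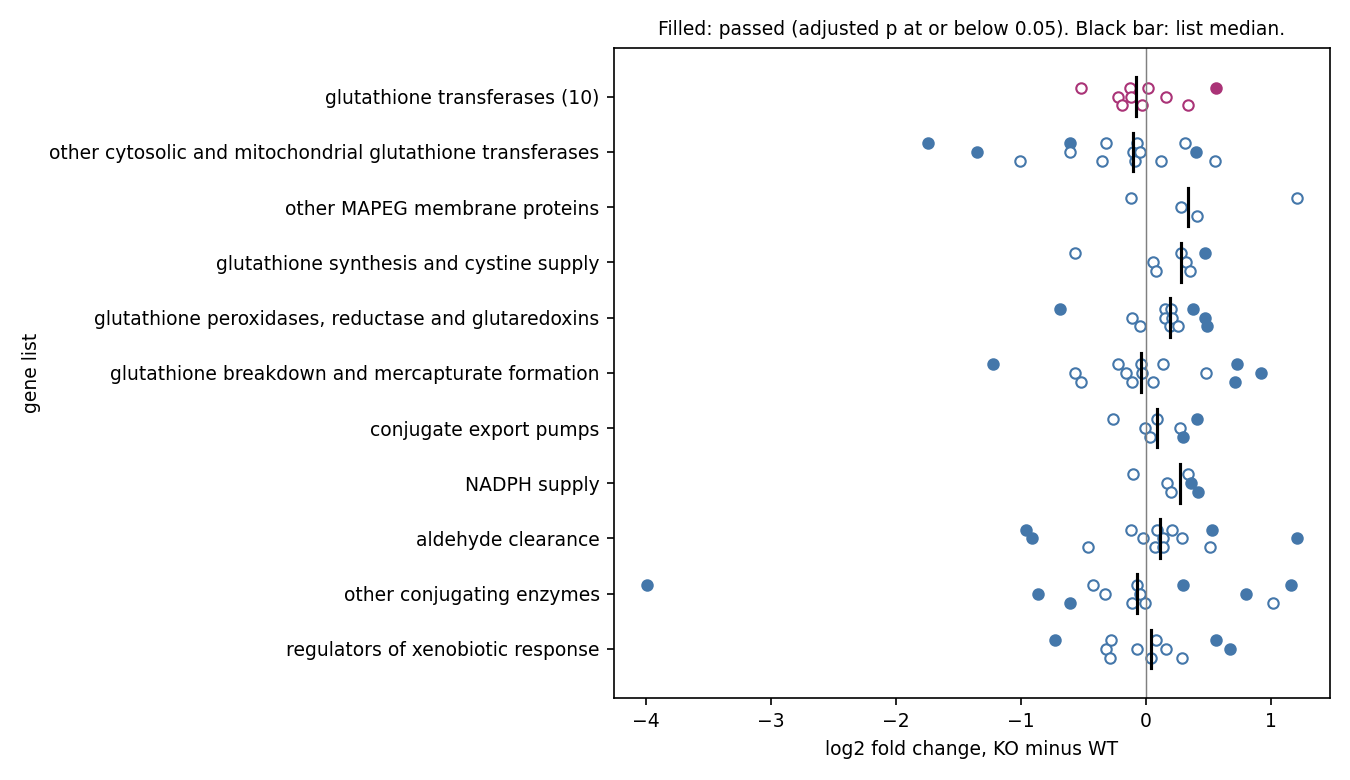
Log2 fold change (KO minus WT) of each tested gene in the 10 members (purple) and in 10 further lists (blue), filled where the edgeR adjusted p was at or below 0.05, with a black bar at each list's median. The members gather near 0 with Gstm1 as the filled point at 0.56, and the lowest filled point is Sult2b1 at -3.99.

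The genes whose pattern over the 5 libraries was most like that of Gstm1 were Pctp, Klf6 and Jpt2, at root-mean-square distances of 0.024, 0.028 and 0.033 in centred log2 CPM among 10231 genes outside the family with a mean of at least 10 CPM. Pctp, which encodes a phosphatidylcholine transfer protein, was at 18 and 18.6 CPM in wild-type tissue against 28.6, 25.7 and 28.3 CPM in the knockouts. Klf6, a transcription factor gene, was at 75.1 and 73.7 CPM and at 120, 106 and 116 CPM. Jpt2 was at 36.5 and 36.7 CPM and at 54.8, 53.2 and 56.1 CPM. With 2 levels set by genotype in 5 libraries, many genes come close to such a pattern, and these 3 are named as a description.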

How the data were processed

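Raw gene counts, 1 file per library, were used as deposited. The submitters' processing notes list HTSeq (version 0.11.1), the aligner HISAT2 (2.1.0), DESeq2 and the mouse build mm10. No source used here gives the annotation, strand setting or read length. The 5 summary rows of the counting program were left out of library sizes. Genes held 49.3% to 60.6% of tallied reads, and reads aligned to several places, which did not count for any gene, 22.3% to 25.8%. Each library is 1 mouse, as the deposited design text gives the numbers of mice, and p-values measure the spread between these mice. Replicate libraries differed by far more than counting error (chi-square per degree of freedom 9.26 to 36.3).

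Low genes were removed by edgeR's filterByExpr, which asked for a total of at least 15 counts. It also asked for a level equal to 10 counts in a library of median size. That level had to be reached in as many libraries as the smaller group holds, not in every library. The remaining 14779 genes were scaled by TMM (factors 0.978 to 1.03) and tested with edgeR's quasi-likelihood test with Benjamini-Hochberg adjustment. Intervals of 95% come from the fit's standard error and degrees of freedom. Versions were edgeR 4.0.16 and DESeq2 1.42.0 with limma 3.58.1 in R 4.3.3, and the fit was tested on simulated data. Positions, exon lengths and shared 50-base stretches (annotated transcripts, both strands) come from GENCODE vM21, and upstream sequences from RefSeq GRCm38.p6.

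The members, lists and tests were chosen with earlier results of these data known. Named genes were the members, the tested remaining family genes, up to 4 genes with the smallest p in each other list plus Nfe2l2, Keap1, Gclc, Gclm, Gsr and Nqo1, and 3 genes nearest to the called member with the largest change. Of the other lists' genes, those whose call held with each library left out are given. Besides these are Slc3a2, the only call of its list, and the 6 fixed genes. Slc7a11 is given beside Slc3a2 and was not a named gene. Markers of endothelium, smooth muscle and Schwann cells or nerve were checked too: 4 of 8, 1 of 8 and 0 of 6 tested genes were lower and 0, 0 and 1 higher in edgeR, and neither of the 2 tested adipocyte genes was called. The 14 alternatives were other scalings, filters and tests, a replicate block, rows of ribosomal and nuclear RNA left out, and each library left out.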

Additional observations from a re-analysis of the deposited data

How the results depend on the processing

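Over 14 alternatives, 133 of 139 member values kept their side of the threshold, mostly members that stayed uncalled. Gstm1, the called member, lost its call in 5 of the 14, and Gstp1 gained one in 1. None of the 959 values of named genes changed direction in a called gene. With each library left out in turn, the number of changed genes ranged from 715 to 3989, of changed members from 0 to 1 and of other changed transferases from 0 to 6. Where edgeR called 0 members, 2 to 4 had an unadjusted p under 0.05. Without a filter on low counts, 2 members and 8 other transferases were called, and DESeq2 called 2 of the other transferases. With the replicate block 4637 genes and 0 members were called (1 member at an unadjusted p under 0.05). Replicate numbers are shared by the titles only. Deviations from the group means correlated across genes at -0.06 for WT 1 with KO 1 and 0.05 for WT 2 with KO 2. These values show no pairing over the genes as a whole. With 2 wild types, whose deviations mirror each other, they cannot exclude a link in some genes. The cause of the differences between the fits was not tested. Fits without a wild type assume that the lone mouse varies like the knockouts. Gsta1, Gm3776, Gstm7, Gstt4 and Gm10639 had few counts per library, which limits the precision of their values.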
